A study of Mus musculus with 8 samples.

Results

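The circadian clock genes described here are Arntl, Clock, Per1, Per2, Per3, Cry1, Cry2, Nr1d1, Nr1d2 and Dbp, 10 of the 51826 genes in a count table from mouse spleen. They were found by matching the Ensembl identifiers of the table to gene symbols in GENCODE M21, an annotation of the mouse genome build GRCm38, and each symbol matched 1 identifier. Gene expression was measured by RNA sequencing of total splenocytes from 8 female Balb/c mice, 4 that received all-trans-retinoic acid (tRA), the active form of vitamin A, and 4 controls that received the canola oil vehicle. Both groups were dosed by mouth every day from weaning, received no pristane, and were 3 months old when the spleens were taken. The labels' treatment text gives tRA at 1 mg/kg for all 8 mice, controls included, so the grouping rests on the sample titles. The mice lived on a light-dark cycle, but the hour at which each spleen was taken is not given in the sources used here. Total counts ranged from 30919272 to 37539631 in the control mice and from 31810417 to 35165876 in the tRA mice. No mice of the same group agreed within counting noise: the chi-square of their counts, divided by its degrees of freedom, lay between 12.9 and 65.4.

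The clock is a feedback loop of transcription that runs in almost every cell. CLOCK and BMAL1, the product of Arntl, bind E-box sequences and switch on the Per and Cry genes, whose proteins return to the nucleus and block CLOCK and BMAL1, while the REV-ERB receptors made from Nr1d1 and Nr1d2 repress Arntl and the output factor DBP acts on D-box sequences. In spleen and in isolated lymphocytes and macrophages these genes cycle over the day, so that a single harvest gives 1 point of each cycle, and Per1 can in addition be switched on quickly by glucocorticoids and by signals that act through cyclic AMP.

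All 10 genes passed the filter on low counts, as did 16484 genes in all. Levels are in CPM, the counts divided by library sizes that TMM had adjusted, and differences as the log2 fold change of tRA over control with its standard error (SE). In edgeR's quasi-likelihood test, 0 of the 10 clock genes had a false discovery rate (FDR, Benjamini-Hochberg over all genes tested) under 0.1, where the background over all genes was 0%, or 0 of 16484 genes. At an unadjusted p under 0.05 there were 0 of the 10 and 1070 of all genes, or 6.49%. Without tRA mouse 1 there were 1 of the 10, Per1, and 2105 of all genes, or 12.6%, and without tRA mouse 4 there were 0 of the 10 and 657 of all genes, or 3.93%. RLE scaling and library size alone each gave 1 of the 10, Cry1, with 6.53% and 7.02% of all genes. DESeq2, run without the filter on low counts, gave 27 genes with an FDR under 0.1, and 44 on the genes that the filter kept, a choice made after seeing the data, none of them a clock gene. The unadjusted p of Cry1, 0.0568 in edgeR's test, was 0.0442 in DESeq2 on those genes. The log2 fold change was positive for 6 clock genes and negative for 4, with a median of 0.013 against 0.0014 over all genes tested. Leaving out 1 mouse moved that median from -0.035, without control mouse 3, to 0.041, without tRA mouse 3, and it was also negative without tRA mouse 4, at -0.029. The groups did not overlap for 1 of the 10, Cry1, where the background of genes without overlap was 3.54%.

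**Figure D1:**
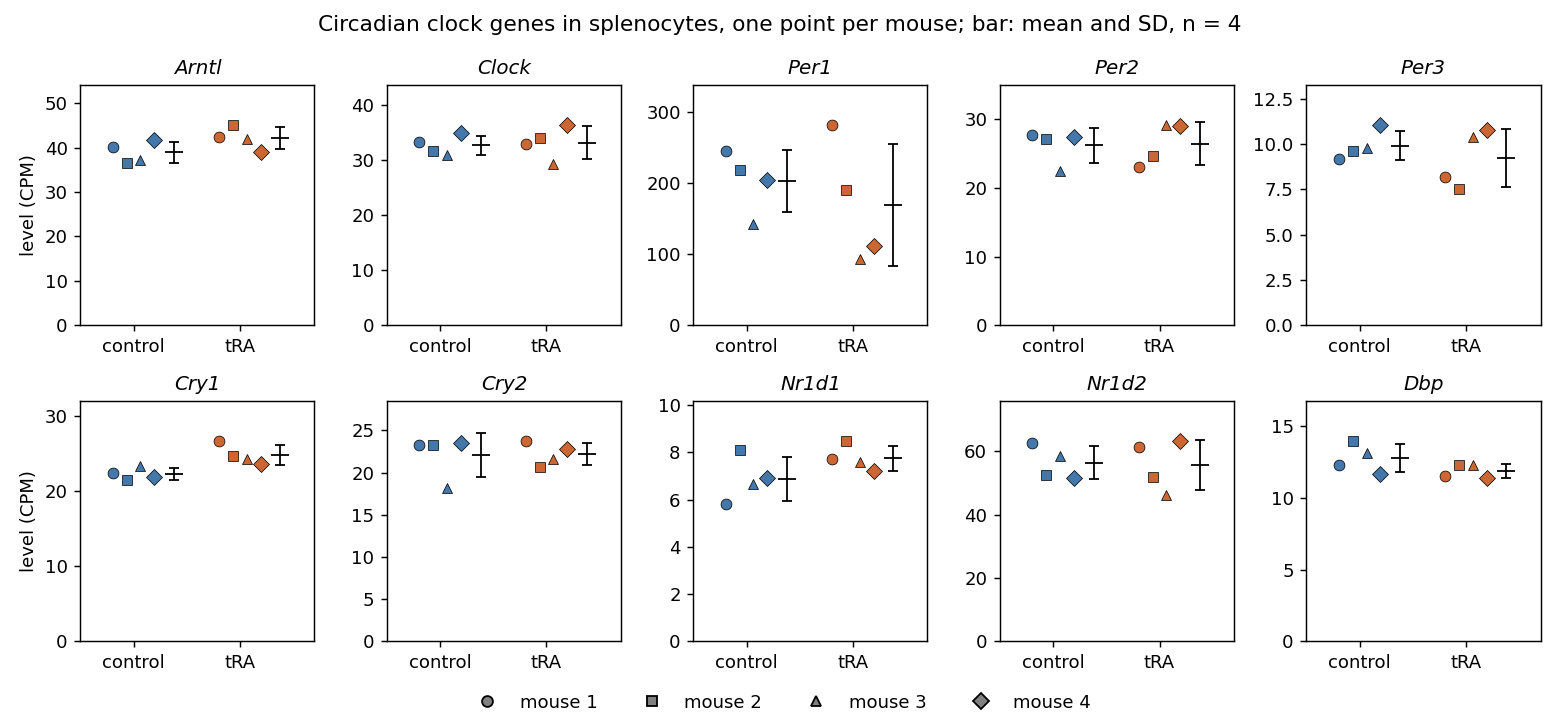
Level of each of the 10 clock genes in CPM (vertical axes, each starting at 0) in the 4 control mice and the 4 tRA mice. Each point is 1 mouse, marked by its replicate number, and the bar gives the mean and SD of the group. Cry1 was higher in each tRA mouse than in any control mouse, and Per1 was spread most widely, from 93.4 to 281 CPM.

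Arntl (ENSMUSG00000055116, chr7:113207465-113314126, plus strand) encodes BMAL1, and it was at 40.1, 36.6, 37.2 and 41.8 CPM in control mice 1 to 4 and at 42.4, 45.1, 42.0 and 39.0 CPM in tRA mice 1 to 4. The tRA mice were the higher on average, but tRA mouse 4 lay within the range of the controls. The mean was 38.9 ± 2.46 CPM (SD, n = 4) with vehicle and 42.1 ± 2.51 CPM (SD, n = 4) with tRA. This gave a log2 fold change of 0.12 (SE 0.074, 95% interval -0.049 to 0.28), with an FDR of 0.793 in edgeR's test. Clock (ENSMUSG00000029238, chr5:76209868-76304792, minus strand), which encodes the partner of BMAL1, was at 33.3, 31.7, 31.1 and 35.0 CPM with vehicle and at 33.0, 34.1, 29.4 and 36.5 CPM with tRA. Its lowest and highest values were both in tRA mice, so that the controls lay inside the range of the treated group. Its log2 fold change was 0.021 (SE 0.082, 95% interval -0.16 to 0.20, edgeR FDR 0.974), which turned to -0.027 without tRA mouse 4 and was 0.075 without tRA mouse 3. The whole range over the 8 mice was 1.23-fold for Arntl and 1.24-fold for Clock.

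The cryptochromes are the main repressors of CLOCK and BMAL1. Cry1 (ENSMUSG00000020038, chr10:85131700-85185064, minus strand) was at 22.5, 21.5, 23.3 and 21.9 CPM in control mice 1 to 4 and at 26.7, 24.7, 24.4 and 23.7 CPM in tRA mice 1 to 4. Every tRA mouse was above every control mouse, a pattern shown by 1.91% of all genes tested, with 1.63% showing the opposite one, although the gap between tRA mouse 4 and control mouse 3 was small. Mean Cry1 was 22.3 ± 0.776 CPM (SD, n = 4) with vehicle and 24.9 ± 1.30 CPM (SD, n = 4) with tRA. Cry1 had a log2 fold change of 0.16 (SE 0.073, 95% interval -0.0054 to 0.32), with an edgeR p of 0.0568 and an FDR of 0.762, so the difference did not pass the test. Cry2 (ENSMUSG00000068742, chr2:92403646-92434043, minus strand) was at 23.2, 23.3, 18.2 and 23.6 CPM with vehicle and at 23.7, 20.6, 21.7 and 22.8 CPM with tRA. Control mouse 3 was the lowest and the groups overlapped. Cry2 had a log2 fold change of 0.0097 (SE 0.099, edgeR FDR 0.991), which turned to -0.079 without control mouse 3.

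The Period genes encode the partners of the cryptochromes. Per2 (ENSMUSG00000055866, chr1:91415982-91459324, minus strand) was at 27.8, 27.1, 22.5 and 27.4 CPM with vehicle and at 23.1, 24.6, 29.2 and 29.0 CPM with tRA. Here too control mouse 3 was the lowest, and tRA mice 3 and 4 were the highest. Per2 had a log2 fold change of 0.015 (SE 0.10, 95% interval -0.21 to 0.24, edgeR FDR 0.983), which turned to -0.059 without control mouse 3. Per3 (ENSMUSG00000028957, chr4:151003652-151044665, minus strand), which is less needed for the loop than the other Period genes, was at 9.18, 9.62, 9.77 and 11.1 CPM with vehicle and at 8.16, 7.53, 10.4 and 10.8 CPM with tRA. tRA mice 1 and 2 were below every control, and tRA mice 3 and 4 were above 3 of the 4. Per3 had a log2 fold change of -0.10 (SE 0.14, 95% interval -0.41 to 0.20, edgeR FDR 0.887). Leaving out 1 mouse moved it between -0.022, without tRA mouse 2, and -0.19, without tRA mouse 4, and without both tRA mice 3 and 4 it was -0.34 (edgeR p 0.0434, FDR 1).

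Per1 (ENSMUSG00000020893, chr11:69095217-69109960, plus strand) behaved unlike the other clock genes in its spread. It was at 244, 218, 142 and 205 CPM in control mice 1 to 4 and at 281, 190, 93.4 and 112 CPM in tRA mice 1 to 4. The highest and the 2 lowest values were all in tRA mice, tRA mouse 1 at the top and tRA mice 3 and 4 at the bottom. The mean was 202 ± 43.2 CPM (SD, n = 4) with vehicle and 169 ± 85.8 CPM (SD, n = 4) with tRA. Per1 had a log2 fold change of -0.26 (SE 0.30, 95% interval -0.93 to 0.41), with an edgeR p of 0.411 and an FDR of 0.875. It depended on single mice: without tRA mouse 1 it was -0.62, without tRA mouse 3 it was -0.059, without tRA mouse 4 it was -0.10, without control mouse 1 it was -0.16, and without control mouse 3 it was -0.40. Without both tRA mice 3 and 4, a choice made after seeing the data, it turned to 0.22. The edgeR p was 0.0251 without tRA mouse 1 and 0.303 without tRA mice 3 and 4, and the FDR of Per1 was between 0.332 and 1 over all alternatives.

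The spread of Per1 can be set beside that of other genes. Within groups, the SD of its log2 CPM was 0.57, and of the 9111 genes with a mean of at least 10 CPM only 100, or 1.1%, had a larger one. The median SD of those genes was 0.13, and the other 9 clock genes lay between 0.063 for Cry1 and 0.20 for Per3. Cry1 was among the steadier genes, since 91.7% of the 9111 had a larger SD. Dbp at 0.088 and Arntl at 0.089 were also below the median. The highest mouse was above the lowest by 3.01-fold for Per1, and by at most 1.47-fold for the rest, the largest of them Per3. Counting error at the lowest Per1 count was 1.7% of the value, against coefficients of variation between mice of 21.3% with vehicle and 50.7% with tRA. For Cry1 it was 3.84%, against 3.48% and 5.24%, and for Dbp 5.26%, against 7.75% and 3.98%, so for neither is it small beside the spread.

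The REV-ERB receptors bind heme and repress Arntl. Nr1d1 (ENSMUSG00000020889, chr11:98767932-98775333, minus strand), which encodes REV-ERB alpha, was at 5.82, 8.09, 6.67 and 6.92 CPM with vehicle and at 7.73, 8.47, 7.59 and 7.21 CPM with tRA. Control mouse 2 was above 3 of the 4 tRA mice, and the other controls were below all of them. On the log2 scale the change of Nr1d1 was 0.17 (SE 0.13, 95% interval -0.11 to 0.46, edgeR FDR 0.813), and leaving out 1 mouse moved it between 0.10, without control mouse 1, and 0.26, without control mouse 2. Nr1d2 (ENSMUSG00000021775, chr14:18204054-18239127, minus strand), which encodes REV-ERB beta, was at 62.6, 52.7, 58.7 and 51.5 CPM with vehicle and at 61.5, 52.0, 46.3 and 63.3 CPM with tRA. Its extremes were again both in tRA mice, mouse 4 the highest and mouse 3 the lowest. On the log2 scale the change of Nr1d2 was -0.017 (SE 0.11, edgeR FDR 0.983), and with library size alone in place of TMM it was 0.011.

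Dbp (ENSMUSG00000059824, chr7:45705088-45710203, plus strand) encodes a PAR bZIP factor that carries the rhythm of CLOCK and BMAL1 to other genes, and in many tissues its transcript has one of the widest daily swings. It was at 12.3, 13.9, 13.1 and 11.7 CPM in control mice 1 to 4 and at 11.5, 12.3, 12.3 and 11.4 CPM in tRA mice 1 to 4. The values lay close together, within 1.22-fold over the 8 mice, the narrowest range of the 10 genes, and the groups overlapped. The mean of Dbp was 12.8 ± 0.988 CPM (SD, n = 4) with vehicle and 11.9 ± 0.472 CPM (SD, n = 4) with tRA. Dbp had a log2 fold change of -0.10 (SE 0.094, 95% interval -0.31 to 0.10, edgeR FDR 0.848), which was -0.058 without control mouse 2.

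Levels of different genes were compared per kilobase of annotated exon. With vehicle, Per1 was highest at 35.9 ± 7.67 CPM per kb (SD, n = 4), followed by Nr1d2 at 10.4 ± 0.965 and Cry1 at 6.68 ± 0.232 CPM per kb. Arntl at 5.17 ± 0.327, Per2 at 4.47 ± 0.430, Dbp at 4.26 ± 0.329 and Cry2 at 3.49 ± 0.410 CPM per kb came next. Clock at 2.39 ± 0.128, Nr1d1 at 2.23 ± 0.305 and Per3 at 1.03 ± 0.0838 CPM per kb were the lowest. Of the neighbours in this order, Per2 and Dbp overlapped between mice, as did Clock and Nr1d1, while no other neighbouring pair did. With tRA the order was the same except that Nr1d1, at 2.52 ± 0.172 CPM per kb, came before Clock, at 2.42 ± 0.215 CPM per kb, and the same 2 pairs overlapped. These lengths count every annotated exon of a gene, whether or not splenocytes use it.

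Some of the reads behind these levels may be shared with neighbouring genes. In GENCODE M21, Dbp overlaps Sphk2, a sphingosine kinase gene on the opposite strand, over 539 exon bases, or 18.0% of the Dbp exons. Sphk2 was at 54.4 ± 4.70 CPM (SD, n = 4) with vehicle and 54.2 ± 4.00 CPM with tRA, with a log2 fold change of -0.0040 (SE 0.083). Nr1d1 overlaps Thra, the gene of a thyroid hormone receptor, over 263 exon bases, or 8.55% of its exons. Thra was at 17.2 ± 1.04 CPM (SD, n = 4) with vehicle and 17.5 ± 0.617 CPM with tRA, with a log2 fold change of 0.033 (SE 0.081). Neither neighbour differed beyond its spread. Cry2 shares 295 exon bases, 4.67%, with the noncoding D930015M05Rik, which was at 0.572 CPM with vehicle and 0.745 CPM with tRA, and Arntl shares 33 exon bases with Gm45355, whose counts were between 1 and 13 per mouse. The paper names Illumina's TruSeq v2 kit for the libraries, which does not keep the strand, and whether the counting treated them as stranded is not given in the sources used here. Without strand, reads from the shared bases of such pairs cannot be told apart. Gm43658 and Ube2n-ps1 within Clock, and Camta1 around Per3, share no exon bases with them.

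In the loop as known from tissues sampled around the clock, Arntl peaks when Dbp and the REV-ERB genes are low. Over the 8 mice, Arntl and Dbp had a Pearson r of -0.595 in log2 CPM (exact permutation p = 0.121) and a Spearman rho of -0.476 (exact permutation p = 0.243). Adjusted over the 8 gene pairs examined, these p-values were 0.484 and 0.576, and without the 2 mice farthest from the median of Arntl r was -0.571. Arntl and Nr1d1 had an r of 0.305 (exact permutation p = 0.465, rho 0.381, exact permutation p = 0.360). The other REV-ERB gene, the more abundant Nr1d2, was not among the pairs examined. Cry1 and Nr1d1 had an r of 0.368 (exact permutation p = 0.371, rho 0.381, exact permutation p = 0.360), or 0.767 (exact permutation p = 0.0722) without the 2 mice farthest from the median of Cry1. Per1 and Per2 had an r of -0.406 (exact permutation p = 0.315, rho -0.429, exact permutation p = 0.299). That r turned to 0.341 without the 2 mice farthest from the median of Per1, tRA mice 3 and 4. Arntl with Clock, Dbp with Nr1d1 and Dbp with Per3 had values of r between -0.067 and 0.19. These turned to -0.0577, -0.264 and 0.0676, in that order, without the 2 mice farthest from the median of the first gene named. None of the 8 pairs had an adjusted p under 0.05. A difference between the groups enters these values. With each group's mean taken out, a step chosen after seeing the data, r was -0.397 for Arntl and Dbp (exact permutation p = 0.365), -0.046 for Arntl and Nr1d1 (exact permutation p = 0.929), 0.628 for Dbp and Nr1d1 (exact permutation p = 0.201) and -0.185 for Cry1 and Nr1d1 (exact permutation p = 0.632), and again no pair had an adjusted p under 0.05.

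Dbp, the gene with the narrowest range, was also set against all 9103 genes outside the clock list with a mean of at least 10 CPM, as a description over the 8 mice, in which counting error is not small beside the spread of Dbp. Among the highest r with Dbp were those of Fcgrt (0.950), Gipc1 (0.950), Aldh2 (0.941) and C1qa (0.936). The lowest were those of Wdr3 (-0.959), Ate1 (-0.936), Rflnb (-0.925), Rassf5 (-0.922) and Pdcd6ip (-0.908). Among so many genes, values of this size can arise over 8 mice without any relation. Within the clock list, r with Dbp ranged from -0.595 for Arntl to 0.127 for Nr1d1, with Clock at -0.583 and Cry1 at -0.498.

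A list of 37 other genes of the clock pathway was examined in the same fit, and 36 of them passed the filter, all except Rorb. None had an FDR under 0.1 in edgeR's test. At an unadjusted p under 0.05 there were 2 of 36 genes, 1 higher with tRA, where the background was 2.94%, and 1 lower, where it was 3.55%. The count rested on single mice, with 8 of 36 without tRA mouse 1, where the background was 12.6%, and 0 without control mouse 3, where it was 5.44%, or without tRA mouse 4, where it was 3.93%. The log2 fold change was positive for 14 and negative for 22, with a median of -0.027, or 0.0023 with library size alone. Leaving out 1 mouse moved that median between -0.043, without control mouse 3, and -0.0073, without control mouse 1. Without both tRA mice 3 and 4, a choice made after seeing the data, it turned to 0.043. The gene that was higher was Arntl2, which encodes BMAL2, a relative of BMAL1. It was at 8.55, 7.72, 8.12 and 7.82 CPM with vehicle and at 9.01, 8.94, 9.44 and 12.1 CPM with tRA, each tRA mouse above each control. Of the 36 genes it was the only 1 without overlap, where the background was 3.54% in either direction. Arntl2 had a log2 fold change of 0.29 (SE 0.12, edgeR p 0.0372, FDR 0.757), and without tRA mouse 4 it was 0.18 (edgeR p 0.144). Its p was between 0.0581 and 0.0789 without control mouse 2, 3 or 4. The gene that was lower was Rbm3, an RNA-binding protein gene induced by cold and driven by daily temperature rhythms. It was at 348, 360, 399 and 325 CPM with vehicle and at 355, 289, 256 and 260 CPM with tRA, with tRA mouse 1 inside the control range and the others below it. Rbm3 had a log2 fold change of -0.30 (SE 0.11, edgeR p 0.0184, FDR 0.757). The edgeR p was 0.051 without control mouse 3, 0.0507 without tRA mouse 3 and 0.0557 without tRA mouse 4, and without both tRA mice 3 and 4 the log2 fold change was -0.15.

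Rora encodes a receptor that competes with the REV-ERB proteins and activates Arntl. It was at 13.3, 12.5, 11.4 and 13.8 CPM with vehicle and at 13.2, 14.0, 11.1 and 17.1 CPM with tRA. The groups overlapped, with the lowest and the highest value both in tRA mice, and the log2 fold change was 0.12 (SE 0.13, edgeR FDR 0.872), or -0.00076 without tRA mouse 4. Of the 9 kinase and phosphatase genes that set how long PER and CRY proteins last, 6 were positive and 3 negative, the largest change being 0.18 (SE 0.13) for Ppp1cb, which was 0.076 without control mouse 4 and 0.29 without control mouse 1. Of the 5 genes of ubiquitin ligases and a deubiquitinase, 2 were positive and 3 negative, with Usp2 farthest from 0 at -0.19 (SE 0.19), or -0.034 without tRA mouse 4 and -0.36 without tRA mouse 1. Of 8 other partners of the clock proteins, 2 were positive and 6 negative, none beyond the -0.10 (SE 0.084) of Kdm5a, a histone demethylase gene, which was -0.046 without tRA mouse 3 and -0.16 without control mouse 3.

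The other listed repressors of CLOCK and BMAL1 are Bhlhe40, Bhlhe41 and Ciart, all with a negative log2 fold change. Bhlhe40, which encodes DEC1, a competitor for E-boxes, was at 221, 205, 160 and 201 CPM in control mice 1 to 4 and at 267, 201, 56.1 and 69.2 CPM in tRA mice 1 to 4. Bhlhe41, which encodes DEC2, was at 15.8, 11.2, 16.3 and 12.6 CPM with vehicle and at 9.55 and 9.32 CPM in tRA mice 3 and 4, with 14.2 CPM in tRA mouse 1. Ciart, which encodes CHRONO, a protein that binds BMAL1, was at 36.9, 43.0, 55.7 and 40.4 CPM with vehicle and at 45.1, 37.0, 16.1 and 22.7 CPM with tRA. Nfil3, from the list of PAR bZIP factors and the repressor that competes with DBP for D-boxes, was at 11.2, 13.8, 14.0 and 16.4 CPM with vehicle and at 18.5, 13.7, 5.80 and 7.88 CPM with tRA. In each of these 4 genes tRA mice 3 and 4 were the lowest of all 8 mice, as for Per1, while tRA mouse 1 was above the mean of the controls. The same mice were lowest for 8 of the 36 other pathway genes tested, among them Usp2 and Rbm3, which are not repressors. Those mice were also lowest for 1710 of all genes, or 10.4%, and for 13.5% of genes with a mean of at least 10 CPM. Control mouse 3 and tRA mouse 1 were the lowest pair for 1703 genes, or 10.3%. This tally of the lowest mice, here and in the lists below, was chosen after seeing the data. The log2 fold changes were -0.41 (SE 0.41, edgeR FDR 0.860) for Bhlhe40, -0.28 (SE 0.17, edgeR FDR 0.793) for Bhlhe41, -0.54 (SE 0.27, edgeR FDR 0.778) for Ciart and -0.27 (SE 0.30, edgeR FDR 0.872) for Nfil3. None passed the test, and without tRA mice 3 and 4 they were 0.25, -0.040, -0.10 and 0.22. Without tRA mouse 1 they were -0.86, -0.40, -0.80 and -0.60. In limma-voom Bhlhe40 was -0.71 and Nfil3 -0.41. Bhlhe40 and Bhlhe41 were picked with their values in view.

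**Figure D2:**
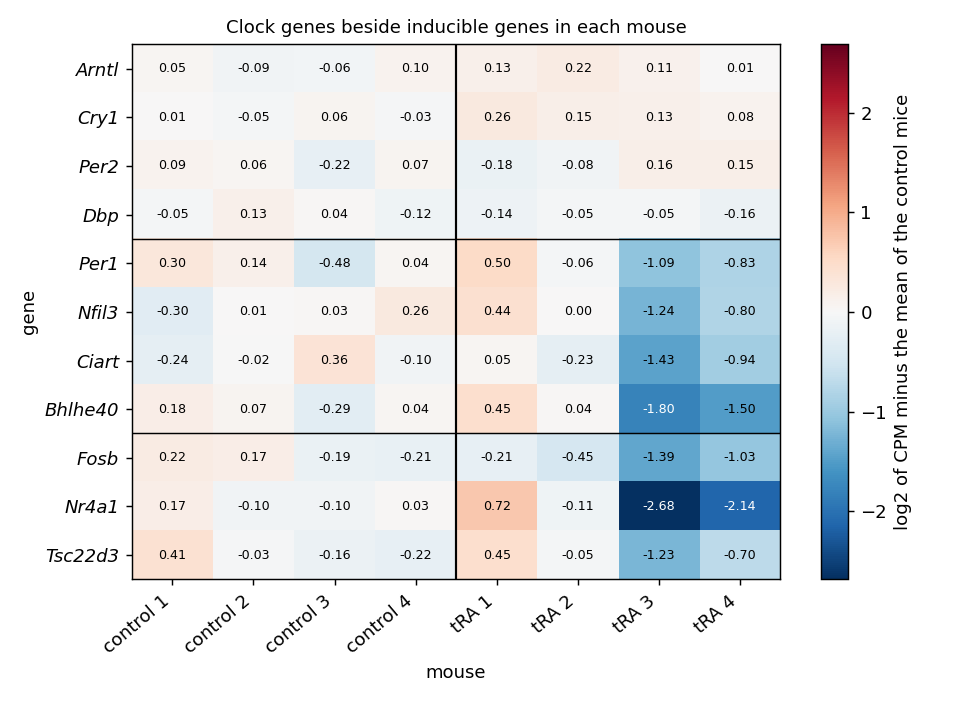
Log2 CPM in each mouse minus the mean log2 CPM of the 4 control mice (colour and printed value) for Arntl, Cry1, Per2 and Dbp, for Per1 with 3 other clock repressors, and for 3 inducible genes. Fosb was in a planned pair, while Bhlhe40, Nr4a1 and Tsc22d3 were picked after their values were seen. All 3 inducible genes were lowest in tRA mice 3 and 4, unlike 2 of the 15 immediate early genes and 6 of the 10 glucocorticoid target genes. Columns are the 8 mice. In tRA mice 3 and 4, Per1 was at -1.09 and -0.83 and Cry1 at 0.13 and 0.085, and Bhlhe40 was at -1.80 in tRA mouse 3.

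Immediate early genes, which cells switch on within minutes of a stimulus or of handling, were examined beside Per1. Their summed level over the 15 listed genes was 17580, 16330, 15410 and 13990 CPM in control mice 1 to 4 and 16580, 12650, 5894 and 7444 CPM in tRA mice 1 to 4. All 15 passed the filter and had a negative log2 fold change, with a median of -0.44, and 4 had an unadjusted p under 0.05 in edgeR's test, where 3.55% of all genes were lower at that p. Fos, the most abundant over the 8 mice, though Fosb had the higher mean with vehicle, was at 3337, 3230, 3302 and 2866 CPM with vehicle and at 3563, 2762, 1117 and 1420 CPM with tRA. For 13 of the 15 genes tRA mice 3 and 4 were the 2 lowest mice, as for Per1. This held for 10.4% of all genes tested and for 13.5% of those with a mean of at least 10 CPM. For 2 of the 15, among them Egr3, lowest in control mouse 3, it did not. Egr1 had the largest change, -0.80 (SE 0.22, edgeR FDR 0.757), and in tRA mouse 1, where Per1 was highest, it was at 624 CPM against 731 CPM or more in the controls. In DESeq2 it passed the threshold, with an FDR of 0.0792, or 0.0856 on the filtered genes, and over all alternatives its FDR was between 0.0792 and 1. Nr4a1, named after its values were seen, was at 159 and 233 CPM in tRA mice 3 and 4 against 946 to 1680 CPM in the other mice. Its log2 fold change was -0.44 (SE 0.58), and -1.05 in limma-voom, -1.20 without tRA mouse 1 and -0.11 without tRA mouse 3. The part of the immediate early genes in the values of Per1 and of the other repressors was not tested. The groups did not overlap for 3 of the 15 genes, Fosb, Jun and Egr1, where 1.63% of all genes lay lower without overlap. Fosb had a log2 fold change of -0.71 (SE 0.23, edgeR p 0.00981, FDR 0.757), between -0.919 and -0.341 over all alternatives. For Per1 the groups overlapped. Over the 8 mice, Per1 and Fosb had an r of 0.858 (exact permutation p = 0.00811, adjusted over the 8 pairs 0.0649) and a rho of 0.667 (exact permutation p = 0.0831, adjusted 0.576). The relation rests on tRA mice 3 and 4, since without them r was 0.327 (exact permutation p = 0.519). With each group's mean taken out, r was 0.943 (exact permutation p = 0.0139, adjusted 0.111).

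Per1 is also a direct target of the glucocorticoid receptor. Of 10 listed glucocorticoid target genes, 4 had a positive and 6 a negative log2 fold change, with a median of -0.073, and 1 had an unadjusted p under 0.05, where the background was 6.49% in either direction and 2.94% higher with tRA. Their summed level was 4502, 3639, 3185 and 3344 CPM with vehicle and 4718, 3522, 1451 and 2090 CPM with tRA. As for Per1, the sum was highest in tRA mouse 1 and lowest in tRA mice 3 and 4. Dusp1, the most abundant and also one of the immediate early genes, and Cxcr4, with the largest change at -0.44 (SE 0.46; -0.78 in limma-voom, -0.97 without tRA mouse 1, -0.14 without tRA mouse 3), were lowest in those mice too, and so was Tsc22d3, at 372 and 537 CPM against 749 to 1198 CPM elsewhere. These genes make up most of the sum. Over the list, tRA mice 3 and 4 were the 2 lowest mice for 4 of the 10 genes and not for the other 6. The background was 10.4% of all genes, or 13.5% of those with a mean of at least 10 CPM. Fkbp5 was at 36.5 and 40.1 CPM in tRA mice 3 and 4 and at 28.7 to 37.4 CPM in the other mice. Il7r, the gene with a p under 0.05, was at 177, 162, 165 and 235 CPM with vehicle and at 218, 228, 214 and 272 CPM with tRA, with a log2 fold change of 0.34 (SE 0.12, edgeR p 0.021, FDR 0.757) and a p of 0.0505 to 0.0688 without control mouse 1, 2 or 3 or tRA mouse 4. The part of glucocorticoids in the level of Per1 was not tested.

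Heat shock genes respond to high temperature as Rbm3 does to low temperature. All 7 genes listed had a negative log2 fold change, with a median of -1.03, and all 7 had an unadjusted p under 0.05 in edgeR's test, where 3.55% of all genes were lower at that p. Their summed level was 6225, 5149, 9382 and 6347 CPM with vehicle and 4096, 5240, 2679 and 4902 CPM with tRA. Hspa8 was the most abundant and Hspa1a had the largest change, -1.35 (SE 0.45, edgeR FDR 0.757). Control mouse 3 had the highest sum, and without it Hspa1a was at -0.89 (edgeR p 0.0516) and Hspa8 at -0.25 (edgeR p 0.116). The p of Hspa8 was also above 0.05 without control mouse 1 or 4 or tRA mouse 3 or 4, between 0.0643 and 0.0971. Per1 shared this order only in part. The sum was lowest in tRA mouse 3, where Per1 was also lowest, but tRA mouse 1, with the highest Per1, had a lower sum than any control. Their part in the level of Rbm3 was not tested. Of 9 listed retinoic acid target genes, 6 passed the filter, 2 with a positive and 4 with a negative log2 fold change and a median of -0.11. Rarg, the most abundant, had a log2 fold change of -0.054 (SE 0.088), or -0.13 without control mouse 1 and -0.013 without control mouse 3, and Stra6, at most 1.06 CPM in any mouse, had the largest change at -0.52 (SE 0.41). The change of Stra6 rests on control mouse 1, since without it the log2 fold change was -0.030. Rarb, a receptor gene with a well-known retinoic acid element, was at 0.43 (SE 0.21, edgeR p 0.0637, FDR 0.776).

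The cell types in the samples bear on any bulk level, since in bulk samples fewer cells of a type and less RNA per cell cannot be told apart. The markers of B cells and T cells, the main cells of the spleen, were abundant, with sums of 4993 to 6070 CPM over 6 B cell genes, led by Cd79a, and of 963 to 1195 CPM over 6 T cell genes, led by Trac. Neutrophil precursor genes separated the groups as Cry1 did, in the other direction. All 7 had a negative log2 fold change, with a median of -0.92, and an unadjusted p under 0.05 in edgeR's test, where 3.55% of all genes were lower at that p. Camp had the largest change, -1.23 (SE 0.16), and the lowest FDR of all genes tested, 0.135 in edgeR's test. Of the 7 genes, 6 showed no overlap, where 1.63% of all genes lay lower without overlap. Their sum, led by Ngp, was 491, 613, 652 and 554 CPM with vehicle and 217, 266, 294 and 424 CPM with tRA. Of 5 plasma cell genes, Jchain and Tnfrsf17 had an unadjusted p under 0.05, both lower, where 3.55% of all genes were, and Tnfrsf17 and Sdc1 showed no overlap, where 1.63% of all genes lay lower without it. The log2 fold change was positive for 2 of the 5 and negative for 3, and the sum, led by Jchain, was 708, 685, 757 and 884 CPM with vehicle and 504, 700, 587 and 578 CPM with tRA. Of 5 mature neutrophil genes, S100a8 and S100a9 had an unadjusted p under 0.05, both lower, where 3.55% of all genes were. Of the 5, 2 had a positive and 3 a negative log2 fold change, with Csf3r at 0.25 (SE 0.23), and the sum, led by S100a9 with vehicle and by Csf3r with tRA, was 533, 889, 691 and 682 CPM with vehicle and 629, 576, 458 and 811 CPM with tRA. Red cells had been lysed during the isolation of the splenocytes. Erythroid genes still varied between mice in both groups, with sums, led by Hbb-bs, of 750, 1443, 2253 and 465 CPM with vehicle and 2191, 592, 3425 and 555 CPM with tRA. No gene of these 6 marker lists was at 0 in every mouse. The part of these cells in the levels of Cry1 and Per1 was not tested.

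Promoter sequences are shown for Per1 and Cry1, as the clock genes with the widest spread and with separated groups, and for Per3 as the gene whose promoter holds the element that DBP binds. They are from a table of RefSeq promoters on GRCm38.p6, in which 9 of the 10 genes, all except Per2, were matched by gene symbol, with 13 windows of 300 bases, 250 before and 50 after a transcription start. Both strands were searched for the E-box CACGTG, the E-prime box CACGTT, which differs from the E-box in its last base, the cyclic AMP element TGACGTCA, the D-box TTATGTAA or TTACGTAA, and the nuclear receptor half-site AGGTCA, and for a retinoic acid element that repeats this half-site in the same direction after 5 bases of any kind. Of all 32851 windows in the table, 7.15% held the E-box, 4.68% the E-prime box, 1.79% the cyclic AMP element, 1.06% a D-box, 16.3% the half-site and 0.00913% the retinoic acid element. Capitals mark the matches, and each sequence is written 5′ to 3′ along the strand of the gene. The window of Per1 is at chr11:69098699-69098998, plus strand, inside the annotated gene with 51 of its bases in exons and the rest in introns. That of Cry1 is at chr10:85185005-85185304, minus strand, with 60 bases in exons and 240 outside the gene, and that of Per3 at chr4:151044616-151044915, minus strand, with 50 bases in exons and 250 outside the gene.
Per1: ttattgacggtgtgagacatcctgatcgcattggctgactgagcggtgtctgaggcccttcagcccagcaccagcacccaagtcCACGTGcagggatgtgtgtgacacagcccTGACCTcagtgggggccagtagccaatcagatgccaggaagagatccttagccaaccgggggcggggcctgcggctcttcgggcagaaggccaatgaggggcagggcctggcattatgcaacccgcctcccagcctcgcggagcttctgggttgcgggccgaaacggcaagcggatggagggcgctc
Cry1: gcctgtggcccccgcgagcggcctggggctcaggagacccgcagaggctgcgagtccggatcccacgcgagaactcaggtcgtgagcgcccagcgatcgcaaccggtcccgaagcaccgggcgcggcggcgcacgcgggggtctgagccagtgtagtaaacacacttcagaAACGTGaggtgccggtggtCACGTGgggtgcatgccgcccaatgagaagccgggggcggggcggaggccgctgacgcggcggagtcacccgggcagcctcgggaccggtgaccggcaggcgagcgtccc
Per3: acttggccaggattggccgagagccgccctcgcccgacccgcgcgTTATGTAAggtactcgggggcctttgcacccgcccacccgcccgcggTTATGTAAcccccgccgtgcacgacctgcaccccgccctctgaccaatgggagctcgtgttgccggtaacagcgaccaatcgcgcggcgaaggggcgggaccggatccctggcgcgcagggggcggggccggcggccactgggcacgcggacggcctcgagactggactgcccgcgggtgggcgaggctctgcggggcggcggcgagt

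The Per1 window held an E-box at position -166 from the start and a half-site, read on the other strand as TGACCT, at -137. The Cry1 window held an E-box at -60 and an E-prime box, read on the other strand as AACGTG, at -79, and the Per3 window held D-boxes at -205 and -158. The E-box was in the windows shown of both Per1 and Cry1, though not in the other window of Per1. Its part in the spread of their levels was not tested. Cry2 and Nr1d1 each had an E-prime box, at -166 and -28, and Nr1d2 had a half-site at -77. Single half-sites were also in 1 of the windows of Arntl, at 32, and of Clock, at -119. None of these letters were in the window of Dbp or in the other window of Per1, and no window of the 9 genes held the cyclic AMP element or the retinoic acid element. A match is a description of the sequence and does not show that a factor binds there.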

How the data were processed

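Counts per gene of 8 splenocyte libraries were deposited by the authors without normalization. The paper names ea-utils, Btrim, Bowtie2, Tophat2 and HTSeq, whereas the submitters' processing notes list STAR 2.5.2b, featureCounts 1.5.1 and GRCm38, so the tools behind these counts are uncertain. The authors' DESeq2 comparison (fold changes and p-values) was not used. GENCODE M21 held 51633 of the identifiers and lacked 193. Genes were filtered by filterByExpr (minimum count 10), scaled by TMM and compared in edgeR 4.0.16 (R 4.3.3) with its quasi-likelihood test, itself tested on simulated data, with Benjamini-Hochberg adjustment. SEs are the fold change divided by the root of the F statistic. DESeq2 1.42.0, limma-voom 3.58.1, RLE, library size alone, other filters, a replicate block and omission of mice were alternatives. Correlations used scipy 1.17.1 in Python 3.11.15, with two-sided exact permutation tests, permuted within groups where group means were taken out.

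The clock genes and all gene lists were chosen with earlier results of these data known. Genes were named by rule: the 10 clock genes, other pathway genes with an unadjusted p under 0.05 or the largest change of their role, the most abundant and most changed gene of each list beside them, genes overlapping a clock gene, and the 5 highest and 5 lowest r with Dbp. Bhlhe40, Bhlhe41, Rora, Nr4a1, Tsc22d3, Fkbp5, Il7r, Rarb and the plasma cell and mature neutrophil genes were named after their values were seen, and Fosb was in a planned pair. Some genes that the rule names are not reported here.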

Additional observations from a re-analysis of the deposited data

Results flagged for a closer look

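In 46 clock pathway genes, 92 groups of 4 mice were examined for 1 mouse that stood far from the other 3, and 6 such values were found, where chance gives about 1 in 20 groups, or 4.6 here. In control mouse 3, Per2 was at 22.45 CPM (27.14 to 27.79 CPM in the other controls), Cry2 at 18.17 CPM (23.22 to 23.56 CPM) and Npas2, the relative of Clock, at 0.6646 CPM (1.214 to 1.325 CPM). In the tRA mice, Arntl2 was at 12.1 CPM in mouse 4 (8.943 to 9.436 CPM in the others), Ppp1ca at 346.9 CPM in mouse 2 (332.6 to 334.5 CPM) and Wdr5 at 72.36 CPM in mouse 1 (59.03 to 61.21 CPM).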

How the results depend on the processing

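With 0 genes at an FDR under 0.1 in edgeR's test, DESeq2, run without that test's filter on low counts, gave 27, edgeR without the filter 6, limma-voom 1, and leaving out each mouse in turn 0 to 3. Of alternatives chosen after seeing the data, leaving out tRA mice 3 and 4 gave 3 and DESeq2 on the filtered genes 44. Under each of these the count of clock genes and of other clock pathway genes was 0. The replicate numbers did not pair the mice (same-number correlations 0.157, -0.0229, -0.014 and 0.259), and with the replicate block 0 genes had an FDR under 0.1 and 1200 an unadjusted p under 0.05, among them 1 clock gene, Per1, at -0.367 (edgeR p 0.0445, FDR 0.683). Of 170 log2 fold changes of the clock genes under the alternatives, 155 kept their sign and 15 turned, as did 8 of 509 for 30 other genes, and the cause was not tested. With library size alone, Nr1d2 turned to 0.0111. With 1 mouse left out, Clock ranged from -0.0268 to 0.0746, Per2 from -0.0589 to 0.0758, Cry2 from -0.0792 to 0.0426, Nr1d2 from -0.0826 to 0.0618 and Rora from -0.000758 to 0.207. Without tRA mice 3 and 4, Per1 was 0.219, Per2 -0.137, Nr1d2 0.00784, Nfil3 0.222, Usp2 0.0934, Bhlhe40 0.247, Tsc22d3 0.201, Nr4a1 0.354, Dusp1 0.0622 and Cxcr4 0.242. Cry1 stayed positive, from 0.12 to 0.203, with p from 0.0217 to 0.148 and FDR from 0.551 to 1. Without the 2 mice farthest from the median, r turned to -0.0577 for Arntl and Clock, -0.264 for Dbp and Nr1d1, 0.0676 for Dbp and Per3 and 0.341 for Per1 and Per2. With each group's mean taken out, also chosen after seeing the data, it turned to -0.046 for Arntl and Nr1d1 and -0.185 for Cry1 and Nr1d1. Counting error at the lowest count of a clock gene was at most 6.84% of the value, for Nr1d1.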
